A study of Mus musculus with 6 samples.

Results

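The genes described here encode the Golgi transferases that start, branch, lengthen and cap mucin-type O-glycans, together with the sialyltransferases and fucosyltransferases that finish many glycan chains. They were taken by symbol, as the protein-coding genes of the Galnt, C1galt1, Gcnt, B3gnt, B3galt, B4galt, St3gal, St6gal, St8sia and Fut families, without regard to their values. The rule found 74 gene identifiers, with 73 symbols, among 55335 genes in the count table. St6galnac2 stands under 2 identifiers. The libraries came from intestinal tissue of 3 Trmt6-/- mice and 3 wild-type (WT) mice, all given dextran sulfate sodium (DSS), which damages the gut lining and causes colitis. Trmt6 encodes the RNA-binding partner of Trmt61a, and together they methylate adenosine in tRNA. Intestinal segment, strain, age, sex, DSS schedule and the way the allele was made are not given in the sources used here. The comparison asks how transferase transcripts differ between genotypes in DSS-treated mice, and no untreated animals were analysed here.

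Mucins and other secreted or membrane proteins of the gut are covered with O-glycans that begin when a Galnt enzyme links N-acetylgalactosamine (GalNAc) to serine or threonine. C1galt1 adds galactose to make core 1, Gcnt enzymes add a branching N-acetylglucosamine (GlcNAc) that turns core 1 into core 2, and B3gnt6 instead makes core 3. The cores are lengthened by alternating GlcNAc and galactose, where B3galt enzymes give type 1 chains and B4galt enzymes give type 2 chains, and are then capped with sialic acid or fucose. These glycans hold water in mucus and serve as food and anchor for gut bacteria.

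Trmt6 itself showed no loss of transcript under the Trmt6-/- label. Its level, in CPM (read counts relative to TMM-scaled library size), was 39.8 in KO72, 34.2 in KO73 and 36.2 in KO75, the libraries labelled Trmt6-/-. It was 30.9 in WT185, 18.7 in WT186 and 23.1 in WT187 (edgeR quasi-likelihood log2 fold change 0.60 ± 0.21, adjusted p = 0.335). The targeted transcript thus went against the labels, although a count summed over a whole gene does not tell which exons it came from. Every direction below rests on the labels alone. Library totals ran from 15213972 to 16972758 counts. All 6 libraries carried absorptive and goblet cell transcripts at high level. The libraries differed in markers of position along the intestine, both within each group and between the groups. An index of ileal minus proximal markers (difference of mean log2 CPM) was 0.61 in KO72, -1.0 in KO73 and -3.9 in KO75. It was -1.75 in WT185, -7.67 in WT186 and -6.16 in WT187. The ranges overlapped only through KO75 and WT185, so the index was partly tied to genotype. Its ileal genes were Fabp6, Slc10a2, Fgf15 and Slc51b, and its proximal genes Gata4, Lct, Cybrd1 and Fabp1. Of these only Slc51b (mean 88.5 against 43.9 CPM) and Gata4 (116 against 214 CPM) had groups without overlap. The proximal gene Fabp1 averaged 1498 against 1299 CPM. Whether the segment sampled or genotype itself set these levels was not tested. In bulk tissue such as this, fewer cells of a type and less RNA per cell cannot be told apart.

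Of the 74 transferase genes, 49 had enough reads to be tested, and 41 of these were over the count minimum in all 6 libraries. St8sia3 passed the minimum through the WT libraries alone. The 25 genes not tested reached at most 2.46 CPM, the value of St8sia1 in WT186. They were Galnt9, Galnt13, Galnt14, Galnt15, Galnt16, Galnt17, Galnt18, Galntl5, Gcnt7, B3gnt4, B3galt1, B3galt2, B4galt2, St3gal5, St6gal2, St6galnac1, St6galnac3, St6galnac5, St8sia1, St8sia2, St8sia5, St8sia6, Fut7, Fut9 and Fut10. For 8 of them (Galnt9, Galnt17, Galntl5, B3gnt4, B3galt1, St8sia2, St8sia5 and Fut9) no read was counted, which allows at most 0.156 to 0.214 CPM per library (3 counts, counting error only) for all but B3gnt4. B3gnt4 shares 1326 of its 1423 exon bases with the opposite-strand gene Diablo, where reads were not assigned, so its count of 0 sets no limit on its level. St6galnac1, which makes the sialyl-Tn antigen, had 1 read over all 6 libraries together.

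Levels were compared between genes as normalised CPM per kilobase of exon. St3gal4, which puts α2,3-linked sialic acid on type 2 chains, was far more abundant than any other transferase gene, at 642 CPM per kilobase in the libraries labelled Trmt6-/- and 449.8 in WT. It made up 98.2 ± 0.684% of the summed level of the α2,3-sialyltransferase class in the libraries labelled Trmt6-/- and 97.4 ± 0.587% in WT (SD, n = 3 each). The main initiating enzyme by level was Galnt6, at 99.1 against 80.7 CPM per kilobase, followed by Galnt1 at 50.8 against 47.6. B3gnt3, which lengthens core 1, stood at 84.0 against 86.1 CPM per kilobase. The fucosyltransferase class was led by Fut8, which adds the core fucose of N-glycans, at 16.4 against 14.3 CPM per kilobase. At the other end, the most abundant polysialyltransferase gene, St8sia4, stood at 0.371 against 0.368 CPM per kilobase.

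**Figure D1:**
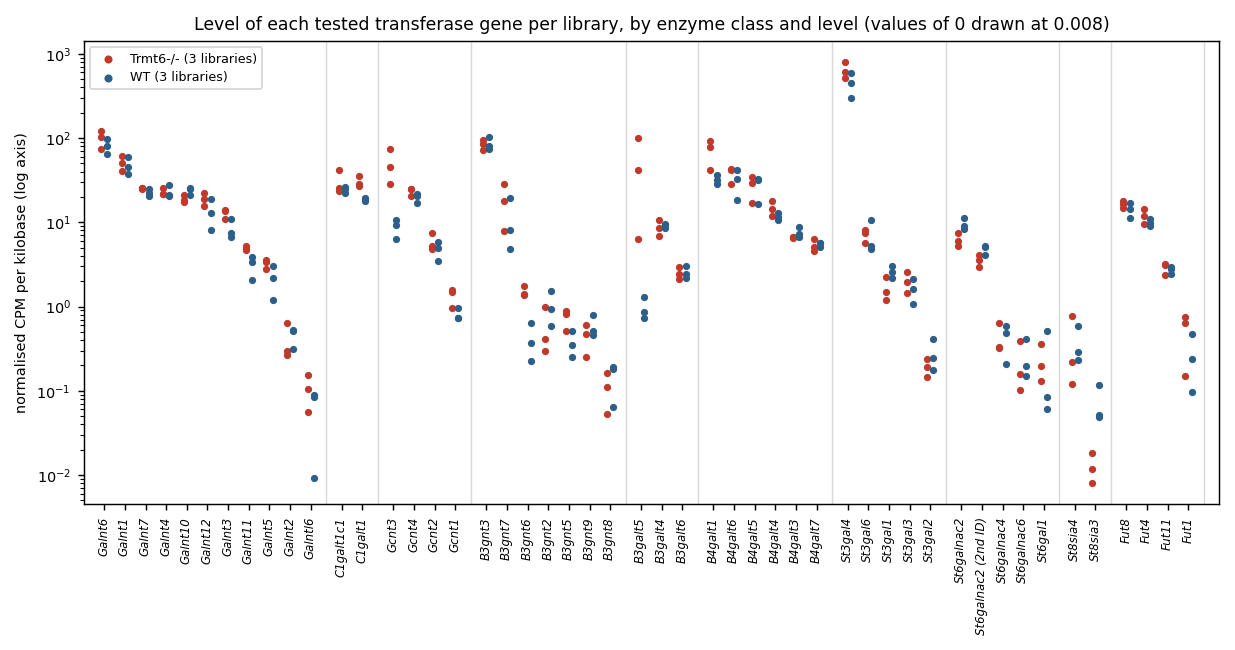
Normalised CPM per kilobase (log axis) of each of the 49 tested transferase genes in each library, grouped by enzyme class and ordered by level within a class, with the Trmt6-/- libraries left of the WT libraries. St3gal4 lies above all others, and B3galt5 is the gene whose 2 groups stand farthest apart.

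In the test of genotype none of the 49 genes passed at an adjusted p below 0.05, against 6 of 14107 genes in all (0.0425%). At an unadjusted p below 0.05 there were 11 transferase genes, 9 of them higher and 2 lower in KO72, KO73 and KO75 than in WT. That is 22.4% of those tested, where the share over all genes was 12.1%, or 6.15% higher and 5.94% lower. The 9 higher were Gcnt3, B3galt5, C1galt1, B3gnt6, B4galt1, Galnt3, Galnt11, B3gnt5 and Gcnt1, and the 2 lower were St6galnac2 and St8sia3. The groups did not overlap for 10 genes (20.4%), against 18.7% of all genes tested, so this share was near that of all genes. Of the 10, 8 were higher (Gcnt3, B3galt5, C1galt1, B3gnt6, B4galt1, Galnt3, Galnt11 and Galnt7), where 9.7% of all genes were, and 2 were lower (St6galnac2 and St8sia3), where 9.03% of all genes were. The median log2 fold change of the tested transferase genes was 0.18, against -0.033 over all genes, and 31 of 49 (63.3%) lay above 0, against 46.1% of all genes. These counts are descriptions of a chosen list and were not tested as a group.

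**Figure D2:**
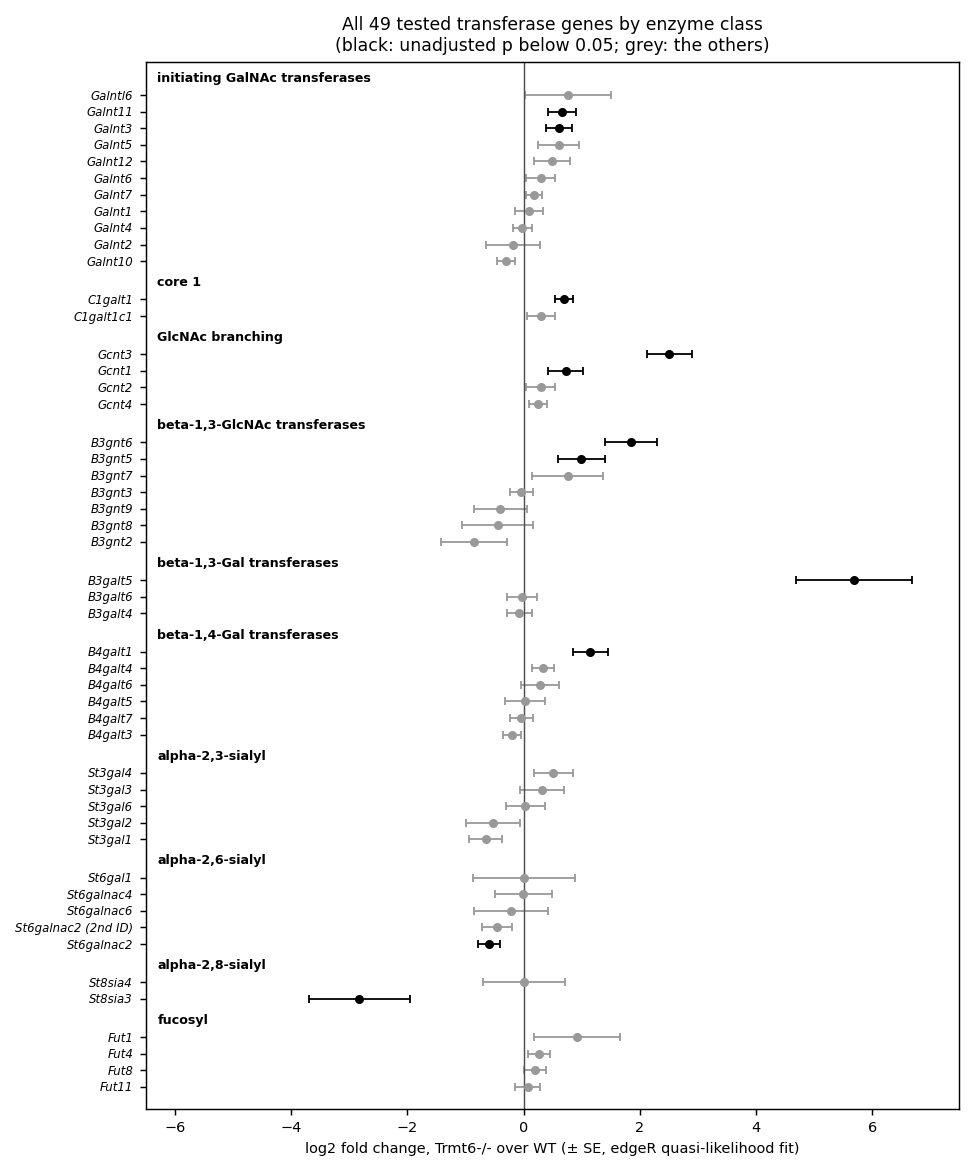
Log2 fold change (Trmt6-/- over WT, ± SE, edgeR quasi-likelihood fit) of the 49 tested transferase genes by enzyme class, black where the unadjusted p was below 0.05. The values reach from -2.83 for St8sia3 to 5.69 for B3galt5, and most others lie within 1 unit of 0.

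Among the initiating GalNAc transferases, 2 of 11 tested genes (18.2%) had an unadjusted p below 0.05, against 12.1% of all genes. Both were higher in the libraries labelled Trmt6-/-, and the class median log2 fold change was 0.30. Galnt3, the enzyme known for glycosylating the phosphate hormone FGF23, had 61.1, 48.1 and 59.4 CPM in libraries labelled Trmt6-/-, against 48.0, 29.3 and 32.7 CPM in WT (log2 fold change 0.61 ± 0.22, unadjusted p = 0.0271, adjusted p = 0.342). The groups were barely separate, since KO73 and WT185 were nearly equal. Galnt11, known for glycosylating receptors of the LDL receptor family, stood at 33.1, 32.3 and 35.5 CPM against 14.3, 23.1 and 26.3 CPM (0.66 ± 0.24, unadjusted p = 0.0282, adjusted p = 0.343). Its groups did not overlap, and the spread was wider in WT. An opposite-strand gene shares 4.47% of its exon bases. The 2 most abundant genes of the class differed by less than the spread between libraries. Galnt6 had 289, 395 and 467 CPM in libraries labelled Trmt6-/-, against 252, 376 and 309.7 CPM in WT (0.30 ± 0.25, adjusted p = 0.722). Galnt1 had 225, 280.3 and 336 CPM against 204, 331 and 253 CPM (0.09 ± 0.25, adjusted p = 0.926). Galnt4, Galnt7 and Galnt10, which can act on peptides that already carry GalNAc, averaged 116 against 117, 133 against 118 and 114 against 141 CPM, with adjusted p of at least 0.51. Of these only Galnt7 had groups without overlap, at 134, 131 and 135 against 129.7, 116 and 107 CPM. Of the rest, Galnt5 (0.60 ± 0.35), Galnt12 (0.50 ± 0.31) and the sparse Galntl6 (0.76 ± 0.74) had positive and Galnt2 (-0.18 ± 0.47) a negative estimate. Galnt2 shares 3854 of its 4282 exon bases with other annotated genes, where reads were not assigned, so its level is understated.

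C1galt1, the core 1 synthase, was higher in every library labelled Trmt6-/-. Its level was 172 CPM in KO72, 165 in KO73 and 218 in KO75, against 114 CPM in WT185, 109.8 in WT186 and 118 in WT187. KO73, the lowest of its group, lay well above the highest WT library, and the mean was 1.62 times that of WT (0.70 ± 0.16, unadjusted p = 0.00351, adjusted p = 0.198). C1galt1c1 encodes Cosmc, the chaperone that C1galt1 needs to fold. Its values were 36.8, 34.2 and 60.6 CPM against 35.7, 38.3 and 32.7 CPM (0.30 ± 0.24, adjusted p = 0.700), and KO75 alone stood out. Per kilobase the chaperone and the synthase were close, at 30.3 and 30.4 in the libraries labelled Trmt6-/- and 24.5 and 18.7 in WT.

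In the branching class all 4 tested genes had a positive log2 fold change, and Gcnt3 had the smallest p of all transferase genes. Gcnt3 (ENSMUSG00000032226.5; GRCm38 chromosome 9, 70031496 to 70038088) encodes the mucin-type branching enzyme, which makes core 2 and core 4. Its level was 122 CPM in KO72, 196 in KO73 and 317 in KO75, against 45.2 CPM in WT185, 26.9 in WT186 and 39.5 in WT187. All libraries labelled Trmt6-/- lay far above WT, and their own spread was wide. The mean was 5.69 times that of WT (log2 fold change 2.51 ± 0.39, unadjusted p = 0.000355, adjusted p = 0.112), which ranked 44 of 14107 genes by p. Gcnt1, the leukocyte-type core 2 enzyme, stood at 5.47, 9.01 and 8.54 CPM against 4.22, 4.16 and 5.51 CPM (0.73 ± 0.31, unadjusted p = 0.0494, adjusted p = 0.413). KO72 and WT187 were nearly equal for this gene. Gcnt4, another core 2 enzyme, differed less, at 104, 125 and 127 CPM against 85.8, 108.9 and 104 CPM (0.25 ± 0.16, adjusted p = 0.606). Gcnt2, which branches poly-lactosamine to make the I antigen, averaged 41.3 against 33.7 CPM. The order of level within the class differed between the groups. The per-kilobase ratio of Gcnt3 to Gcnt4 was 1.38 in KO72, 1.86 in KO73 and 2.94 in KO75, against 0.623, 0.292 and 0.447 in WT.

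Among the 7 tested β1,3-GlcNAc transferases the core 3 enzyme B3gnt6 was low in abundance but separated the groups, and the class median was -0.036. B3gnt6 (ENSMUSG00000074004.3; chromosome 7, 98192417 to 98199481) had 3.22, 4.19 and 3.34 CPM in libraries labelled Trmt6-/-, against 1.51, 0.887 and 0.539 CPM in WT. The groups did not overlap (1.85 ± 0.45, unadjusted p = 0.00452, adjusted p = 0.210). It had 164 reads in all against 51 in WT, which gives a depth-adjusted ratio of 3.53 (95% exact interval 2.56 to 4.93, counting error only). B3gnt5, which starts the lacto-series glycolipids, stood at 4.29, 2.65 and 4.55 CPM against 2.66, 1.30 and 1.80 CPM (0.99 ± 0.41, unadjusted p = 0.0448, adjusted p = 0.398), and KO73 and WT185 were nearly equal. B3gnt3 had 220.1, 293 and 257 CPM against 225, 316 and 248 CPM (-0.036 ± 0.20, adjusted p = 0.970). B3gnt7, which lengthens keratan sulfate chains, spread widely within both groups, at 32.5, 74.0 and 119 CPM against 33.9, 79.7 and 19.8 CPM (0.76 ± 0.61, adjusted p = 0.706). B3gnt2, B3gnt8 and B3gnt9 had negative estimates with unadjusted p from 0.181 to 0.488. B3gnt2 shares 66.0% of its exon bases with other annotated genes and is understated.

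B3galt5 had the highest fold change of all transferase genes and the 10th highest of the 14107 genes tested. Its product makes type 1 chains, the backbone of Lewis a in humans. The gene (ENSMUSG00000074892.9; GRCm38 chromosome 16, 96235801 to 96319859, plus strand) shares no exon base with another annotated gene. Its level was 39.2 CPM in KO72, 259 in KO73 and 612 in KO75, against 4.48 CPM in WT185, 5.25 in WT186 and 7.91 in WT187. Each library labelled Trmt6-/- lay above each WT library, while the 3 libraries labelled Trmt6-/- differed 15.6-fold among themselves, against 1.77-fold within WT. The counts summed to 13008 against 295 (log2 fold change 5.69 ± 0.997, unadjusted p = 0.00077, adjusted p = 0.136). Without KO75, the highest library, the log2 fold change was 4.68 (unadjusted p = 0.00114), and without KO72, the lowest of its group, it was 6.22 and passed in edgeR (adjusted p = 0.0338), where 0.0413% of all genes did. The other β1,3-galactosyltransferases had overlapping groups. B3galt4, an enzyme of ganglioside synthesis, stood at 11.01, 13.5 and 16.7 CPM against 15.1, 14.6 and 13.5 CPM (-0.069 ± 0.22, adjusted p = 0.941). B3galt6, which builds the linker of proteoglycans, had 9.48, 6.84 and 7.69 CPM against 9.69, 7.03 and 7.73 CPM. B3galt5 accounted for 39.0, 79.6 and 88.5% of the summed per-kilobase level of the class in KO72, KO73 and KO75, and for 5.47, 6.93 and 10.4% in the WT libraries.

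B4galt1, which makes type 2 chains and forms lactose synthase in the mammary gland, was also higher in every library labelled Trmt6-/-. It stood at 178, 333 and 394 CPM against 122, 152 and 133 CPM, a mean of 302 ± 112 against 136 ± 15.2 CPM (SD, n = 3 each). KO72 lay closest to WT (1.15 ± 0.30, unadjusted p = 0.00682, adjusted p = 0.231). B4galt6, a lactosylceramide synthase and next in level, had 241, 246 and 164 CPM in libraries labelled Trmt6-/-, against 106, 244 and 189 CPM in WT (0.28 ± 0.33, adjusted p = 0.811). B4galt5, which makes the same lipid, averaged 117 against 115 CPM. B4galt4 averaged 46.8 against 37.2 CPM (0.33 ± 0.19), B4galt3 36.1 against 41.4 CPM and B4galt7, which builds the proteoglycan linker, 15.3 against 15.8 CPM. None of these 5 had an unadjusted p below 0.05. The per-kilobase ratio of B3galt5 to B4galt1, a type 1 to a type 2 enzyme, was 0.151, 0.535 and 1.07 in KO72, KO73 and KO75. In WT185, WT186 and WT187 it was 0.0252, 0.0237 and 0.0408.

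The stretches before the start sites of B3galt5 and B4galt1 are shown because these genes make the 2 alternative chain types and both were higher in the libraries labelled Trmt6-/-. RefSeq gives B3galt5 3 start sites, and gene-level counts cannot tell which was used. Each stretch ends where the first counted exon begins, which left only 16 bases for the third start (96281032). Capitals mark matches to TTTATG (a CDX core), GTTAAT (an HNF1 core), CAAAGTCCA (an HNF4 core), TGATGNAAT (a CEBP-ATF composite), GGGCGG (a GC box) or TTCNNNGAA (a STAT core), searched on both strands. None of the marked matches overlap each other. The sequences are from RefSeq on GRCm38.p6, written 5′ to 3′ on the strand of the gene. The coordinates are chr16:96235551-96235800 (plus strand) and chr16:96273263-96273473 (plus strand) for the first and second start of B3galt5 and chr4:40854006-40854234 (minus strand) for B4galt1.
B3galt5, first start: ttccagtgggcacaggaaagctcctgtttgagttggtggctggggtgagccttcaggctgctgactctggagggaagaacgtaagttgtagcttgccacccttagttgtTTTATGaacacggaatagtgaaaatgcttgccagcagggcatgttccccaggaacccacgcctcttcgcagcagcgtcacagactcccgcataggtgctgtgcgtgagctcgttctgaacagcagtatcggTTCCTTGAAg
B3galt5, second start: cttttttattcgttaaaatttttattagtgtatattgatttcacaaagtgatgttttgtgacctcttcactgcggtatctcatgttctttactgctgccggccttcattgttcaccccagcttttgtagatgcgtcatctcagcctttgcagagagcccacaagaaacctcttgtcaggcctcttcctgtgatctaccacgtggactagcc
B4galt1: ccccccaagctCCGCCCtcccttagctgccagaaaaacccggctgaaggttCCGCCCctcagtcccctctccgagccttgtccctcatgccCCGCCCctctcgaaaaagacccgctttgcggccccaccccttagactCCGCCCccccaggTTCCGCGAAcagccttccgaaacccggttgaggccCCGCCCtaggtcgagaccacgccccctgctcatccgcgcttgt

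The B4galt1 stretch held 5 GC boxes, all on the opposite strand, 1 STAT core and 67.2% G and C. The first B3galt5 stretch held 54.0% G and C with 1 CDX core and 1 STAT core, and the second held 43.1% G and C with none of the 6 motifs. Among the 250-base windows before all 32851 RefSeq starts the median was 52.4% G and C. A GC box occurred in 32.7% of these windows, a CDX core in 10.8% and a STAT core in 7.02%. An HNF1 core occurred in 6.43%, a CEBP-ATF composite in 0.816% and an HNF4 core in 0.384%. The table held windows for 54 of the transferase symbols, and 48.6% of their 74 windows held a GC box. A CDX core occurred in 8.11% of the 74, a STAT core in 6.76%, an HNF1 core and an HNF4 core in 1.35% each and a CEBP-ATF composite in 0. A match describes letters and does not show that a factor binds there.

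**Figure D3:**
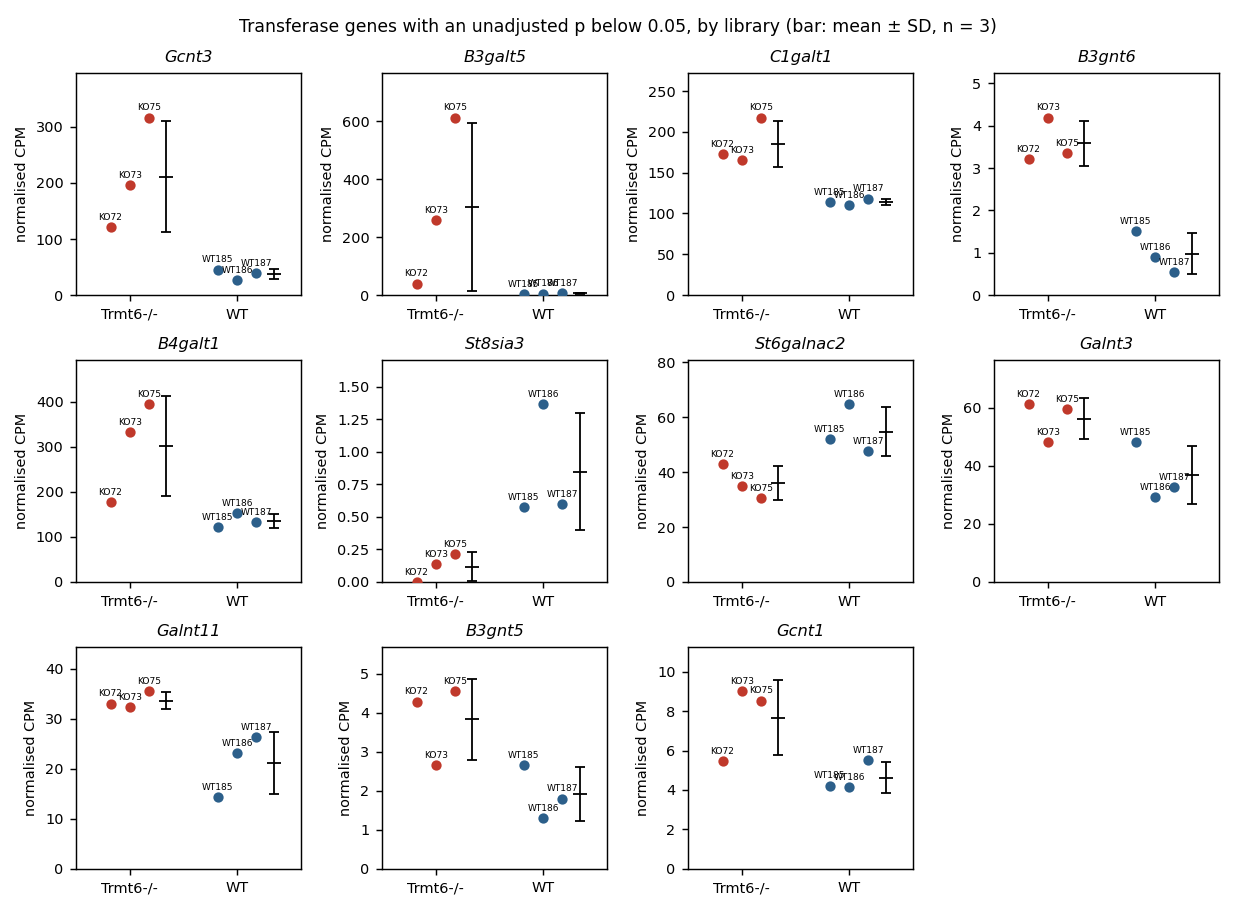
Normalised CPM (linear axes from 0) of the 11 transferase genes with an unadjusted p below 0.05 in each library, with mean ± SD (n = 3) beside the points and the Trmt6-/- libraries on the left. Gcnt3, B3galt5 and B4galt1 have KO72 lowest and KO75 highest of the libraries labelled Trmt6-/-, and all 3 stand above WT.

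Among the sialyltransferases the abundant St3gal4 had overlapping groups, with 1495 CPM in KO72, 1787 in KO73 and 2347 in KO75 against 885, 1752 and 1308 CPM in WT (0.51 ± 0.33, adjusted p = 0.617). St3gal1, which caps core 1 with sialic acid, had 15.2, 8.17 and 10.3 CPM against 20.6, 17.5 and 14.9 CPM (-0.65 ± 0.28, unadjusted p = 0.0540, adjusted p = 0.426). Only KO72 reached into the WT range. St3gal6, a type 2 chain enzyme, stood at 50.3, 45.6 and 34.7 CPM against 29.4, 66.3 and 32.5 CPM (0.028 ± 0.34, adjusted p = 0.984). St3gal3 and the sparse St3gal2 averaged 5.51 against 4.42 and 0.974 against 1.40 CPM.

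St6galnac2, which links sialic acid to the GalNAc of O-glycans, was lower in every library labelled Trmt6-/-. The values were 42.9, 34.8 and 30.7 CPM against 52.1, 64.7 and 47.6 CPM (ENSMUSG00000057286.6; -0.60 ± 0.19, unadjusted p = 0.0158, adjusted p = 0.283). The second identifier with this symbol (ENSMUSG00000110170.1) overlaps the first on the same strand and stood at 6.83, 5.94 and 4.98 CPM against 6.83, 8.80 and 8.63 CPM (-0.45 ± 0.26, adjusted p = 0.572). Reads in exon bases shared between them or with an opposite-strand gene, 15.2% of the first and 22.8% of the second, were not assigned. The 3 other tested genes of the α2,6 class were sparse. St6galnac4, St6galnac6 and the N-glycan enzyme St6gal1 averaged 2.79 against 2.78, 1.04 against 1.22 and 1.12 against 1.09 CPM. In the α2,8 class St8sia3, known from brain, was near the detection limit, with 0 reads in KO72, 2 in KO73 and 3 in KO75 against 11, 20 and 10 in WT. The depth-adjusted ratio was 0.134 (95% exact interval 0.0412 to 0.338, counting error only). In the edgeR fit the unadjusted p was 0.0145 and the adjusted p 0.279. The gene was tested only because its WT libraries passed the count minimum, so the ratio and p are not independent of that selection. An antisense gene shares 7.85% of its exon bases, and the counting did not use strand. St8sia4 stood at 2.43, 4.47 and 15.4 CPM against 4.69, 5.80 and 11.7 CPM (0.007 ± 0.71, adjusted p = 0.997).

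None of the 4 tested fucosyltransferase genes had an unadjusted p below 0.05, against 12.1% of all genes, and the smallest was 0.19, for Fut4. Fut4, which makes Lewis x structures, had 38.7, 58.0 and 48.0 CPM against 44.2, 39.4 and 36.4 CPM (0.27 ± 0.18, adjusted p = 0.643). Fut8 had 130.1, 115 and 143 CPM against 89.8, 135 and 113 CPM (0.20 ± 0.19, adjusted p = 0.758). Fut11 averaged 12.2 against 11.6 CPM. Fut1, which makes the H antigen, was sparse, at 2.09, 0.419 and 1.78 CPM against 1.30, 0.273 and 0.659 CPM (0.92 ± 0.74). The groups of all 4 genes overlapped.

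The 5 genes with the smallest p (Gcnt3, B3galt5, C1galt1, B3gnt6 and B4galt1) had an unadjusted p below 0.05 and the same direction under each of the 15 alternatives tried. They were picked by p in the same libraries, so this describes dependence on the processing and is no independent support. The highest p among these alternatives was 0.0266, for B4galt1 without KO73. Whether they passed after adjustment depended on the method. DESeq2 called exactly these 5 of 66 transferase genes at an adjusted p below 0.05, all higher (adjusted p from 7.35e-12 for B3galt5 to 0.0280 for B4galt1). It called 553 of the 26948 genes given a p (2.05%). That total can include genes left without an adjusted p by its own low-count filter. Without the low-count filter edgeR called Gcnt3 and B3galt5 (adjusted p = 0.00664 each), beside 159 of 26973 genes (0.589%), and limma-voom called none. With the index of ileal minus proximal markers, whose values were partly tied to genotype, as covariate no gene of any kind passed. The log2 fold change of B3galt5 was then 6.48 and that of Gcnt3 was 2.61, and 18 of the 49 transferase genes had an unadjusted p below 0.05, against 20.6% of all genes. Only 8 of the 11 reported genes were among these 18. Galnt3 (0.37 ± 0.21, unadjusted p = 0.134), B3gnt5 (0.75 ± 0.46, unadjusted p = 0.154) and St8sia3 (-1.96 ± 0.93, unadjusted p = 0.0744) no longer had one in this edgeR fit.

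**Figure D4:**
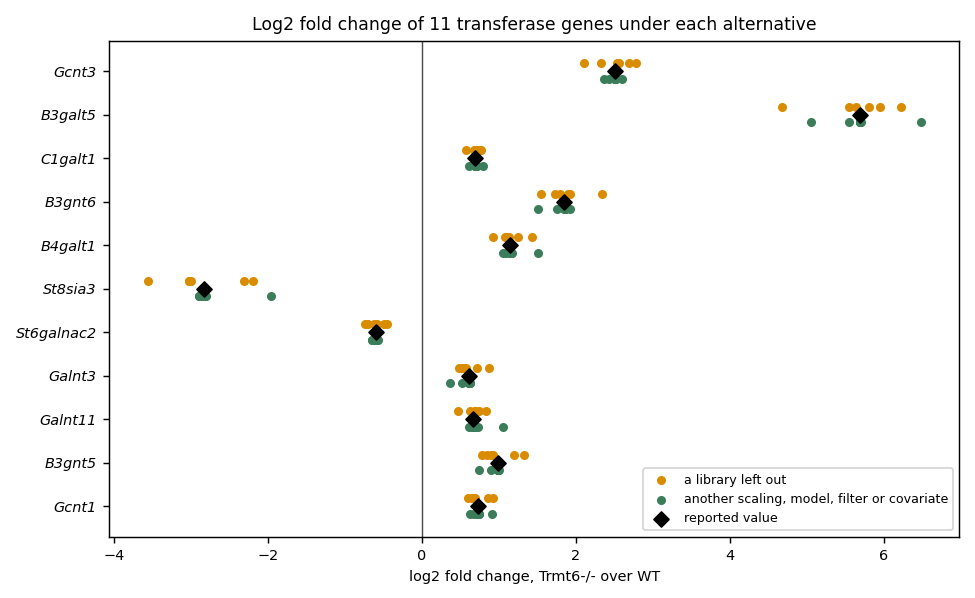
Log2 fold change (Trmt6-/- over WT) of the 11 transferase genes with an unadjusted p below 0.05, as reported (diamonds), with a library left out (upper points) and with another scaling, model, filter or covariate (lower points). No point crosses 0, and B3galt5 spans 4.68 to 6.48. The genes were picked by p in the same libraries.

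Genes that supply the transferases with sugar or substrate were listed with results of these data known. Of 23 tested genes of nucleotide sugar synthesis and transport 0 passed after adjustment, 3 were higher at an unadjusted p below 0.05 and 0 lower (median log2 fold change 0.13). The share was near the 12.1% of all genes tested, whose median was -0.033. Gmds, which takes the first step from GDP-mannose to GDP-fucose, had 304, 372 and 622 CPM in libraries labelled Trmt6-/-, against 232, 123 and 166 CPM in WT (1.32 ± 0.35, adjusted p = 0.237). Gfpt1 and Pgm3, enzymes of UDP-GlcNAc synthesis, averaged 643 against 443 and 76.1 against 48.4 CPM (adjusted p = 0.348 and 0.295). Of 14 tested mucins and mucus proteins 0 passed, 3 were higher and 1 lower at an unadjusted p below 0.05 (median 0.43), where 6.15% of all genes were higher and 5.94% lower. The goblet cell mucin Muc2 stood at 1770.2, 1486 and 1599.97 CPM against 945, 839 and 1175 CPM (0.71 ± 0.23, adjusted p = 0.3002). The membrane mucins Muc3 (1.83 ± 0.31, adjusted p = 0.128) and Muc3a (1.95 ± 0.23, adjusted p = 0.0838) are paralogs whose reads may be split between them, and the sparse Muc20 was the lower one (-1.33 ± 0.43).

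Among 12 tested enzymes outside the chosen families that act on the same glycans, 0 passed, 2 were higher and 1 lower at an unadjusted p below 0.05 (median -0.029), against 12.1% of all genes in either direction. Chst4, which sulfates GlcNAc on mucin glycans, had 39.6 CPM in KO72, 120.5 in KO73 and 201 in KO75, against 18.1, 26.5 and 12.8 CPM in WT (2.65 ± 0.59, adjusted p = 0.190). B4galnt4 was the other higher gene (1.03 ± 0.33) and the sialic acid esterase gene Siae the lower one (-0.56 ± 0.23). B4galnt2, which makes the Sd(a) antigen in the mouse gut, had the highest level per kilobase of this list and averaged 300.1 ± 31.6 against 321 ± 24.02 CPM. Of 5 tested sialidase and fucosidase genes 0 passed, and 1 was higher and 1 lower at an unadjusted p below 0.05 (median -0.03). Over all genes 6.15% were higher and 5.94% lower at this threshold. Neu1, the lysosomal sialidase, stood at 113, 124 and 86.3 CPM against 89.0, 37.0 and 38.9 CPM (0.97 ± 0.37, adjusted p = 0.362), with overlapping groups. Neu3, the plasma membrane sialidase, stood at 0.339, 2.10 and 3.27 CPM against 7.76, 16.99 and 6.59 CPM (-2.46 ± 0.77, adjusted p = 0.281). A list of 9 genes, 8 N-glycan branching enzymes and Fuca1, had 8 tested (median 0.24). Of these 0 reached an unadjusted p of 0.05, against 12.1% of all genes.

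Tested genes within 200 kilobases of the 5 leading genes were also measured, beside the 12.1% of all tested genes that had an unadjusted p below 0.05. Around B3galt5 there were 6, with log2 fold changes from -0.35 to 0.93, and the only one with an unadjusted p below 0.05 was Igsf5 (0.74 ± 0.29). Around Gcnt3 the 4 neighbours ranged from 0.31 to 1.52, and 2 of them, Gm47233 and Myo1e, had such a p. Around B3gnt6 it was 3 of 4, with Acer3 (1.52) and Capn5 (1.02) higher and Tsku (-2.08) lower. Near C1galt1 it was 1 of 2, Asns (1.68 ± 0.40), while Gm43961, whose span overlaps that of C1galt1, had 0.61 ± 0.48. Around B4galt1 it was 0 of 8, with values from -0.39 to 0.69. None of the 6 had a fold change near that of B3galt5.

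Markers of several cell types differed between libraries. The summed level of 6 goblet cell markers ran from 11930 to 16590 CPM in libraries labelled Trmt6-/-, against 8162 to 12700 CPM in WT. Fcgbp made up most of this sum. Muc2 and Clca1 (mean 1271 against 966 CPM) were higher in every library labelled Trmt6-/-. Fcgbp, Zg16 (1851 against 1160 CPM), Tff3 and Spdef overlapped, each with a higher mean under that label. The summed level of 6 enteroendocrine markers ran from 149.4 to 162 against 261 to 402 CPM, without overlap. Of these markers Chga, Chgb, Cck and Neurod1 were lower in every library labelled Trmt6-/-. Gcg overlapped, and Pyy, also overlapping, averaged 8.79 against 4.46 CPM. The sum of 4 crypt stem markers was 569 CPM in KO72, 344 in KO73 and 18.2 in KO75, the reverse of their order for B3galt5, against 1714, 406 and 847 CPM in WT. In WT, B3galt5 rose from WT185 through WT186 to WT187, and the crypt stem sum did not fall in that order. Other sums also followed the order of KO72, KO73 and KO75. Among them the goblet, T and NK and proximal sums rose (proximal 501, 2170 and 3728 CPM), and the ileal sum fell (832, 641 and 179 CPM). T and NK cell markers ran from 76.0 to 665 CPM against 247 to 924 CPM, with KO75 and WT187 highest. Neutrophil markers summed to 0.451 to 6.33 CPM against 0.136 to 0.360 CPM, endothelial markers to 3.63 to 7.05 against 1.36 to 2.52 CPM and smooth muscle markers to 0.451 to 0.783 against 0.120 to 0.261 CPM. These 3 low sums also did not overlap. For the neutrophil and smooth muscle sums the gap between KO72 and the highest WT library was only a few reads. Of all tested genes 18.7% had groups without overlap, but that share is of single genes over the count minimum and is no like background. Each endothelial marker overlapped on its own, and no neutrophil or smooth muscle marker had enough reads to be tested. Of the 4 squamous markers Ly6d alone was above trace level, at 9.76, 9.64 and 6.05 CPM in libraries labelled Trmt6-/-, against 0.365, 0.273 and 0.360 CPM in WT, while the keratins Krt5 and Krt14 reached at most 0.205 CPM and Krt13 was at 0. Of the gastric gland markers Muc5ac and Gkn1 were at 0 in all libraries. KO72 was lowest and KO75 highest among the libraries labelled Trmt6-/- in 16 of 49 transferase genes with KO73 between them (32.7%), against 24.1% of all genes. The part of cell composition in the transferase values was not tested.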

How the data were processed

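Per the labels' protocols, total RNA of intestinal tissue was made into amplified cDNA libraries; molecular identifiers are not mentioned. Per the file headers, the deposited values are raw counts per gene from featureCounts 2.0.1 (paired reads, exons grouped by gene, GENCODE vM23), with no strand, multimapping or overlap option. Per the submitters' processing notes, fastp, HISAT2 and mm10 were used. The gene length column (unit: other), deposited by the authors, served for per-kilobase levels. Column names hold KO or WT and a number that matches no label. Symbols and biotypes came from GENCODE vM21, also on GRCm38, and 55154 of 55335 identifiers matched. One gene of these families is not reported here.

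After filterByExpr and TMM scaling, genotype was tested with the edgeR 4.0.16 quasi-likelihood F test (R 4.3.3; two-sided, no other term; Benjamini-Hochberg over 14107 genes, threshold 0.05). The biological coefficient of variation was 0.345. Group means are over 3 libraries, and SE is the log2 fold change divided by the square root of F. Alternatives used limma 3.58.1, DESeq2 1.42.0, other scalings and filters, a positional covariate and each library left out. The procedure was tested on simulated data. Within groups no 2 libraries were duplicates (chi-square per degree of freedom at least 44.1). The series gives 3 mice a group and no litters or batches. The genes, lists and alternatives were chosen with earlier results of these data known. Named with full values were genes with an unadjusted p below 0.05 and the 2 most abundant of each class.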

Additional observations from a re-analysis of the deposited data

How the results depend on the processing

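All genes called numbered 6 as reported, 553 with DESeq2, 159 without the low-count filter, 0 with library totals, 0 with limma-voom and 0 with the positional covariate, and 0 to 6 with each library left out (0 without KO73, KO75, WT186 or WT187). Transferase genes called numbered 0 as reported, 5 with DESeq2 and 2 without the low-count filter, and 0 to 1 with each library left out (B3galt5 without KO72). Transferase genes at an unadjusted p below 0.05 numbered 11 of 49 as reported, where 12.1% of all genes had such a p. With the positional covariate they numbered 18 of 49, where 20.6% of all genes did. With each library left out they numbered 6 to 13. The lowest was 6 of 49 without KO75, beside 1503 of 14644 genes in all, so the share was then near that of all genes. The highest was 13 of 52 without WT185, beside 2109 of 14543 genes in all. Of the 25 transferase genes named by rule, the 11 with an unadjusted p below 0.05 kept their sign in all 164 alternative values, and 16 of the other values changed sign. The 11 were picked for a small p in the same libraries that the alternatives reuse, so their kept signs are no independent support. The genes that changed sign had reported estimates near 0, from -0.069 for B3galt4 to 0.093 for Galnt1. B3galt4 had a log2 fold change of 0.05 with the positional covariate, B3gnt3 0.20 with it, and St8sia4 -0.12 with library totals and -0.35 with limma-voom. With a library left out, the range was -0.22 to 0.073 for B3galt4, -0.14 to 0.13 for B3gnt3, -0.051 to 0.31 for Galnt1, -0.16 to 0.50 for St3gal6 and -1.09 to 0.49 for St8sia4. The cause of these shifts was not tested. St8sia3 was not tested under the stricter filter. No paired analysis was possible because the count columns carry no replicate numbers. Genes that did not reach about 0.622 CPM in 3 libraries were too sparse to test.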
